A study of Drosophila melanogaster with 14 samples.

Results

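The heat shock proteins and chaperonins of *Drosophila* were taken as the protein-coding genes whose symbol starts with Hsp or Hsc and a digit, with DnaJ- or with CCT and a digit, together with *Hsf*. The rule found 37 of the 13792 genes in the deposited RNA-seq data of the PDF+ LNvs. By textbook role they comprised the regulator *Hsf*, 7 inducible Hsp70 genes, 6 small heat shock proteins, the Hsp90 gene *Hsp83*, 4 J proteins, 6 cognate Hsc70 genes, 4 Hsp60 chaperonins and the 8 subunits of the CCT chaperonin. The Hsp70 copies, *Hsp68*, the small heat shock proteins, *Hsp83* and *DnaJ-1* were treated as an inducible set of 15 genes. The Hsc70 genes, *Hsp110*, *Hsp60A*, the CCT subunits and *DnaJ-H* formed a constitutive set of 16, and 6 genes were in neither set.

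Chaperones bind unfolded proteins and help them reach or keep their native shape. Heat and other protein-damaging stress activate Hsf, a transcription factor that binds the promoters of the inducible genes, whereas the cognate genes and the chaperonins serve folding in unstressed cells. Hsp70 proteins bind exposed stretches of polypeptide with the help of J proteins, small heat shock proteins hold unfolded clients without ATP, Hsp90 acts late in the folding of signalling proteins, and the ring-shaped CCT complex folds actin and tubulin. In fly models of polyglutamine disease, Hsp70 and J proteins are known as modifiers of toxicity.

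The LNvs are ventral clock neurons that use PDF as their neuropeptide. They were marked with Pdf>mGFP and sorted from brains of female flies, all in a w1118 background, raised at 25°C and labelled with the condition HC25. The altered genotypes were *Atx2* RNAi, labelled Atx2 KD, in which the RNAi line KK108843 was co-expressed in the PDF+ cells, at ZT0 and ZT12 (hours after lights-on), and the loss-of-function mutant *tyf*(e), in which every cell of the animal carried the mutation, at ZT4 and ZT16, with 2 libraries for each genotype and time. Wild type, with mGFP but without RNAi, had 1 library for each of ZT0, ZT2, ZT4, ZT12, ZT14 and ZT16, and the one used as ZT0 carries the label ZT24. *Atx2* RNAi at ZT0 was set against wild type at ZT0 and ZT2, *Atx2* RNAi at ZT12 against wild type at ZT12 and ZT14, *tyf* at ZT4 against wild type at ZT2 and ZT4, and *tyf* at ZT16 against wild type at ZT14 and ZT16. Wild type ZT2 and wild type ZT14 therefore served in both experiments. The labels do not say whether libraries came from separate groups of flies, so p-values measure the spread between these libraries. The paper does not say whether wild type was sorted and sequenced together with the altered genotypes. A difference from wild type, also one shared by *Atx2* RNAi and *tyf*, therefore cannot be told apart from a difference between batches. The age of the flies is not in the labels.

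The libraries held between 5216112 and 23507263 estimated counts, of which the 37 genes took from 0.394% to 0.986%. *Atx2* stood at 20.1 to 44.6 normalized CPM (counts scaled by library size and the TMM factors of the 14 libraries) in *Atx2* RNAi and at 115 to 223 in the other 10 libraries, and *tyf* at 33.8 to 65.8 in the *tyf* mutant and at 188 to 933 elsewhere. The 6 LNv markers (*Pdf* and 5 clock genes) summed to 106361 to 141826 CPM in *Atx2* RNAi and 98451 to 159899 in *tyf*, against 62088 to 102738 in wild type, with no overlap for *Atx2* RNAi. Nearly all of this was *Pdf*, at 101120 to 136837 CPM in *Atx2* RNAi, 96264 to 155171 in *tyf* and 60272 to 101731 in wild type. In *Atx2* RNAi at ZT0, 2 of the 6 were called higher, and the median log2 fold change of the list was 0.93. At ZT12, 0 were called, and 3 had positive and 3 negative log2 fold changes. In *tyf* at ZT4, 1 was called higher (median 0.56). In *tyf* at ZT16, 1 was called higher and 1 lower, and 5 had negative log2 fold changes (median -0.63). Over all genes tested, 7.3%, 6.83%, 4.3% and 6.22% were called in these comparisons. Of the clock genes in the list, the paper reports *vri* higher at ZT0 and *tim* lower at ZT12 in *Atx2* RNAi. Here *vri* had 262 and 137 CPM in *Atx2* RNAi at ZT0, against 7.29 and 13.9 in wild type at ZT0 and ZT2. The list is thus no measure of LNv content alone. The summed level of 6 glial markers ran from 142 to 305 CPM in *tyf*, against 12.7 to 45.1 in wild type, and from 14.5 to 38.9 in *Atx2* RNAi, against the same wild-type range. All 6 glial markers were detected in each *tyf* library, with *repo* at 2.23 to 5.77 CPM. Of the 6, 2 were called higher in *tyf* at ZT4 and 2 at ZT16. Markers of photoreceptors summed to 93.4 to 187 CPM in *Atx2* RNAi, 109 to 367 in *tyf* and 106 to 151 in wild type. In *tyf* at ZT16 they summed to 249 and 367 CPM, against 106 and 126 in wild type at ZT14 and ZT16. There all 5 had positive log2 fold changes (median 2.73), and 2 were called higher. In *tyf* at ZT4 the median was -1.29 and 0 were called, and in *Atx2* RNAi 1 was called lower at ZT0 and 0 at ZT12. Markers of muscle summed to at most 14.2 CPM in any library. Markers of other neurons summed to 66.3 to 199 CPM in *Atx2* RNAi, 59.8 to 465 in *tyf* and 185 to 272 in wild type. Markers of fat body or hemocytes summed to 77.1 and 18.4 CPM in *Atx2* RNAi at ZT12, against 4.32 and 11.9 in wild type at ZT12 and ZT14, and to 4.03 and 6.97 in *Atx2* RNAi at ZT0. Over all wild-type libraries this sum ran from 4.32 to 58.8 CPM, and in *tyf* from 19.5 to 58.8. All 5 tested had positive log2 fold changes in *Atx2* RNAi at ZT12 (median 2.87), and the yolk protein gene *Yp2* was called (3.08, adjusted p = 0.0266). The part of these cells in the results was not tested. In bulk RNA, fewer cells of a type and less RNA per cell cannot be told apart.

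The library of *tyf* at ZT4 replicate 1 stood apart in the inducible genes. It was the highest of the 14 libraries for 10 of the 15 inducible genes, whereas it was the highest for 8.68% of the 8422 genes with at least 10 counts on average. The inducible genes summed to 8170 TPM in it, against 2372 to 4532 TPM in the other 13 libraries. In the same library *Gad1*, a marker of GABAergic neurons, stood at 332 CPM against 7.49 in replicate 2. *VGAT* and *ChAT*, from the same list of other neurons, stood at 34.2 and 45.4 CPM in that library. Wild type had 30.4 to 59.7 CPM of *VGAT* and 57.7 to 102 of *ChAT*. *Gad1* also differed between the *Atx2* RNAi replicates of ZT0 (0.492 and 97.7 CPM). In *tyf* ZT4 replicate 1 the glial markers summed to 305 against 142 in replicate 2, and the LNv markers to 98451 against 156828. Among wild-type libraries, ZT14 was the lowest of the 14 for 5 of the 15 inducible genes, and ZT4 was the lowest for 6 of the 15 constitutive genes with at least 10 counts on average. Of the 8422 genes, 6.91% were lowest in wild type ZT14 and 9.74% in wild type ZT4.

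**Figure D1:**
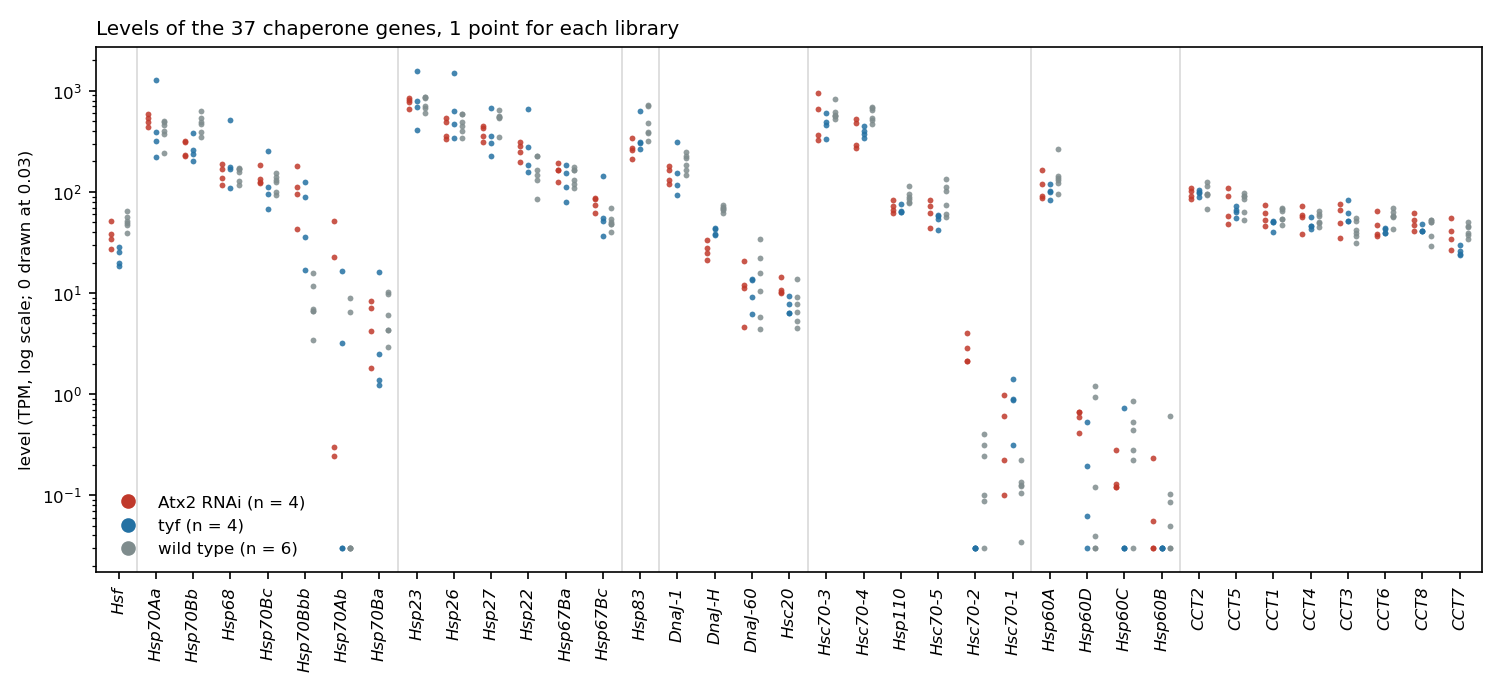
Level of each of the 37 genes in TPM on a log axis, with the genes grouped by role and 1 point for each library of *Atx2* RNAi (n = 4), *tyf* (n = 4) and wild type (n = 6); values of 0 are drawn at 0.03. The small heat shock proteins and the abundant Hsp70, Hsp90 and Hsc70 genes lie at the upper end, and 6 genes (*Hsp70Ab*, *Hsc70-2*, *Hsc70-1*, *Hsp60D*, *Hsp60C* and *Hsp60B*) had libraries at or near 0.

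Levels between genes were compared in TPM, which is scaled by transcript length. The stress-inducible genes were abundant without any heat treatment being named in the labels. The cells were sorted from dissected brains before RNA was extracted, and the effect of this handling on these levels was not tested. *Hsp23*, a small heat shock protein, had the highest mean of the 37 genes at 798 TPM, and ran from 663 to 856 TPM in *Atx2* RNAi, from 407 to 1576 in *tyf* and from 607 to 874 in wild type. *Hsc70-3*, the Hsp70 of the endoplasmic reticulum also known as BiP, averaged 563 TPM over the 14 libraries, *Hsp26* 539.5 TPM, *Hsp70Aa* 482 TPM, the major cytosolic cognate *Hsc70-4* 478 TPM, *Hsp27* 449.8 TPM and *Hsp83* 399.8 TPM. The ranges over libraries of these genes overlapped one another, so their order is a description. The order also depends on the length scaling. In normalized CPM, *Hsc70-3* (687 to 1645) stood above *Hsp23* (237 to 764) in each library. The RNA was amplified by T7 transcription, and the effect of this on values scaled by length was not tested. Summed by role, the small heat shock proteins averaged 2234 TPM, the inducible Hsp70 genes 1219, the cognate Hsc70 genes 1193, the CCT subunits 466, Hsp90 399.8, the J proteins 246, the Hsp60 chaperonins 127 and *Hsf* 39.4. The CCT subunits lay close together. Their means ran from 36.7 TPM for *CCT7* to 97.8 TPM for *CCT2*, and their sum from 355 to 603 TPM over libraries.

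After the filter on low counts, 33 of the 37 genes were tested for *Atx2* RNAi (not *Hsc70-1*, *Hsp60B*, *Hsp60C* and *Hsp60D*) and 34 for *tyf* (not *Hsc70-2*, *Hsp60B* and *Hsp60D*). Calls were made where the Benjamini-Hochberg adjusted p, over the genes tested, was under 0.05. In *Atx2* RNAi at ZT0, 3 of 33 were called, 2 higher and 1 lower, where 7.3% of all 8643 genes tested were called. In *Atx2* RNAi at ZT12, where 1 of 5 fat body or hemocyte markers was also called higher, 8 of 33 were called, 7 higher and 1 lower, beside 6.83% of all genes. In *tyf* at ZT4, 4 of 34 were called, all higher, beside 4.3% of 9503 genes, and in *tyf* at ZT16 3 of 34 were called, 2 higher and 1 lower, beside 6.22%. Scaling by library size alone moved the median of all genes in *tyf* at ZT16 to -0.42 on the log2 scale, against -0.03 with TMM, so that 13.0% of all calls were higher, against 47.2%, and 1 of the 37 genes was called higher and 2 lower. At ZT4 the same scaling left 40.7% of all calls higher, against 55.0%, and the same 4 higher and 0 lower counts of chaperones.

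**Figure D2:**
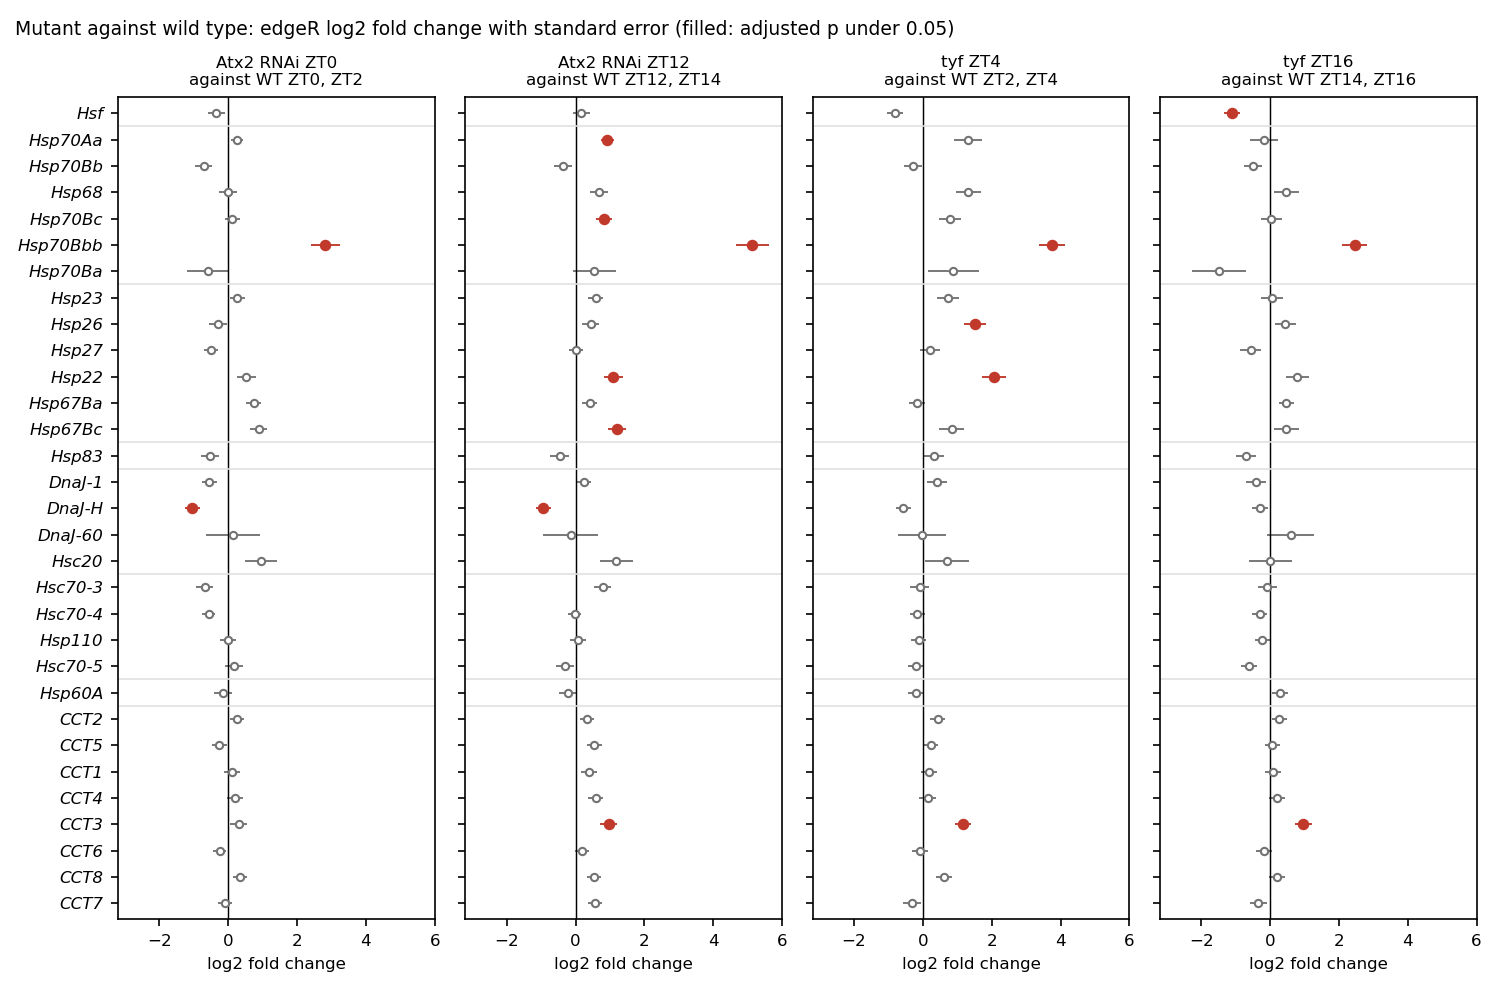
Log2 fold change of 31 genes in the 4 comparisons with wild type, with the standard error from edgeR as bars and genes grouped by role from top to bottom; filled red points had an adjusted p under 0.05. The 6 genes with libraries at or near 0 (*Hsp70Ab*, *Hsc70-1*, *Hsc70-2*, *Hsp60B*, *Hsp60C* and *Hsp60D*) are left out, since their fitted values depend on the prior count. *Hsp70Bbb* stands far to the right in all 4 comparisons, with log2 fold changes from 2.46 to 5.14, and most other points lie between -1 and 1.

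The calls rested on few libraries. With 1 library left out, the count of chaperones called at ZT12 in *Atx2* RNAi was 1 without *Atx2* RNAi replicate 1, 1 without replicate 2, 5 without wild type ZT12 and 2 without wild type ZT14. The calls over all genes dropped in the same fits, to 132, 138, 427 and 279, against 590 with every library. For *tyf* at ZT4 the chaperones called were 2 without the library that stood apart, 8 without *tyf* replicate 2 and 1 without wild type ZT4, beside 325, 438 and 139 of all genes, against 409. For *Atx2* RNAi at ZT0 the count was 1 without either RNAi replicate and 1 without wild type ZT2, beside 178, 266 and 327 of all genes, against 631. For *tyf* at ZT16 it was 1 without either *tyf* replicate and 1 without wild type ZT14, beside 261, 197 and 184 of all genes, against 591. Only the calls of *Hsp70Bbb* against wild type passed the threshold in every such fit, with adjusted p up to 0.0265. Scaling by library size alone also ended the calls in *Atx2* RNAi of *DnaJ-H* (adjusted p = 0.0587 at ZT0 and 0.082 at ZT12), of *Hsc70-2* at ZT0 (0.0563) and of *Hsp22* (0.098), *Hsp70Bc* (0.0992) and *CCT3* (0.115) at ZT12. Fitting the libraries of a comparison alone ended those of *Hsc70-2* at ZT0 (0.0526) and of *Hsp22* (0.0511) and *Hsp70Bc* (0.055) at ZT12 in *Atx2* RNAi, and of *Hsp26* in *tyf* at ZT4 (0.0561).

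*Hsf*, the heat shock factor, was lower in *tyf* at ZT16 and did not pass the test in *Atx2* RNAi. It had 35.8 and 38.5 CPM in *tyf* at ZT16, against 83.9 and 71.6 in wild type at ZT14 and ZT16. Every *tyf* library lay below every wild-type library, and *Hsf* fell by 1.10 on the log2 scale (SE 0.23, edgeR adjusted p = 0.0134, where SE is the standard error). This call was lost without wild type ZT14 (adjusted p = 0.106), without *tyf* replicate 1 (0.0973) and without *tyf* replicate 2 (0.0967).

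At ZT4, *Hsf* had 44.8 and 50.2 CPM in *tyf*, against 77.5 and 88.9 in wild type at ZT2 and ZT4. The groups did not overlap, and the log2 fold change of -0.81 missed the threshold with edgeR (adjusted p = 0.0635) and passed it with DESeq2 (adjusted p = 0.0181). In *Atx2* RNAi, *Hsf* had 53.9 and 60.7 CPM at ZT0, against 64.9 and 77.5 in wild type at ZT0 and ZT2, and 71.6 and 84.1 at ZT12, against 54.6 and 83.9 in wild type at ZT12 and ZT14. Neither difference passed the test (adjusted p = 0.446 and 0.729). The level of *Hsf* in *tyf* stood below that of all 6 wild-type libraries in all 4 *tyf* libraries.

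The 6 Hsp70 copies are near-identical in sequence, and reads that match several copies were split among them by kallisto, so the value of a single copy is uncertain. Their sum is more secure. The copies lie on chromosome 3R of the Ensembl BDGP6.54 annotation in a pair and a group of 4. *Hsp70Aa* (11954163 to 11956544) and *Hsp70Ab* (11958535 to 11960909) form the pair, and *Hsp70Ba* (12465453 to 12467776), *Hsp70Bbb* (12502510 to 12504856), *Hsp70Bb* (12505793 to 12508139) and *Hsp70Bc* (12509076 to 12511461) form the group.

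Merged into 1 gene, the copies had 1541 and 1475 CPM in *Atx2* RNAi at ZT0, against 1505 and 1507 in wild type at ZT0 and ZT2. At ZT12 they had 1589 and 1808 CPM in *Atx2* RNAi, against 1201 and 981 in wild type at ZT12 and ZT14. The groups overlapped at ZT0 and did not at ZT12, where the log2 fold change was 0.64 (SE 0.19, adjusted p = 0.0721 with edgeR and 0.0222 with DESeq2). The test at ZT0 gave -0.03 (SE 0.19, adjusted p = 0.952).

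In *tyf*, the merged copies had 2744 and 1425 CPM at ZT4, against 1507 and 933 in wild type at ZT2 and ZT4. At ZT16 they had 832 and 1183 CPM in *tyf*, against 981 and 1298 in wild type at ZT14 and ZT16. The groups overlapped at both times, and the log2 fold changes were 0.77 at ZT4 (SE 0.33, adjusted p = 0.218) and -0.21 at ZT16 (SE 0.33, adjusted p = 0.765). At ZT4 the value was 0.23 without the *tyf* library that stood apart and 1.15 without replicate 2, which passed the threshold (adjusted p = 0.0303).

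Among single copies, *Hsp70Bbb* was higher in every mutant library than in any wild-type library. It had 70.2 and 167 CPM in *Atx2* RNAi at ZT0, against 18.0 and 14.8 in wild type at ZT0 and ZT2, and 149 and 242 at ZT12, against 4.03 and 7.18 in wild type at ZT12 and ZT14. In *tyf* it had 166.5 and 145 CPM at ZT4, against 14.8 and 8.82 in wild type at ZT2 and ZT4, and 27.5 and 59.6 at ZT16, against 7.18 and 8.26 in wild type at ZT14 and ZT16. The log2 fold changes were 2.82 (SE 0.42, adjusted p = 0.00293) and 5.14 (0.47, adjusted p = 0.000176) in *Atx2* RNAi at ZT0 and ZT12, and 3.74 (0.38, adjusted p = 0.000104) and 2.46 (0.37, adjusted p = 0.00173) in *tyf* at ZT4 and ZT16.

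The neighbouring copy *Hsp70Bb* had negative log2 fold changes that did not pass the test. It had 524 and 342 CPM in *Atx2* RNAi at ZT0, 353.5 and 423 in *Atx2* RNAi at ZT12, 505 and 425 in *tyf* at ZT4 and 324 and 393 in *tyf* at ZT16, against a lowest value of 422, a median of 573 and a highest of 716 in the 6 wild-type libraries. The mutant and wild-type ranges overlapped, and the log2 fold changes ran from -0.71 to -0.29, with adjusted p from 0.118 to 0.59. As a share of the estimated counts of the 6 copies, *Hsp70Bbb* took 3.31% to 13.4% in the 8 mutant libraries and 0.336% to 1.2% in wild type, while *Hsp70Bb* took 18.4% to 39.0% in the mutants and 43.0% to 49.8% in wild type. The split of the reads therefore differed between the mutants and wild type, with no overlap for either copy. Genotype and a batch of libraries cannot be told apart in this difference.

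**Figure D3:**
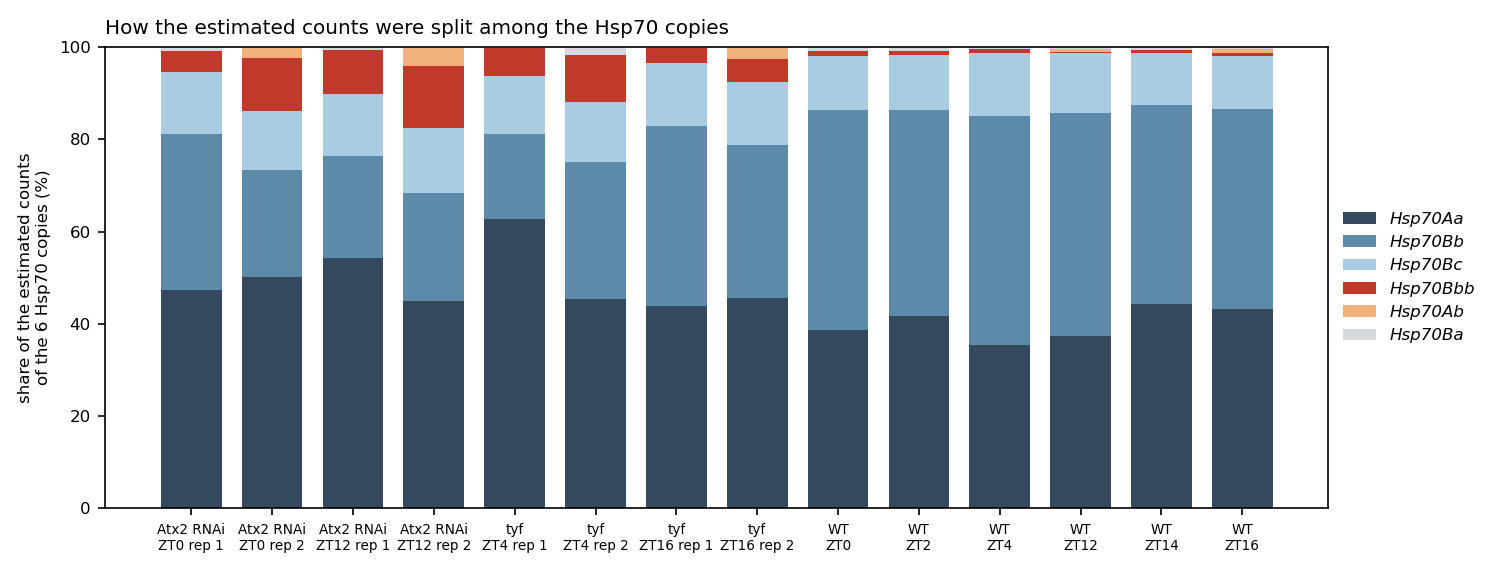
Share of the estimated counts of the 6 Hsp70 copies assigned to each copy, in percent, with 1 bar for each library of *Atx2* RNAi and *tyf* at the left and of wild type at the right. The red segment, *Hsp70Bbb*, takes 3.31% to 13.4% in the 8 mutant libraries and at most 1.2% in wild type, and the segment of *Hsp70Bb* is narrower in the mutants.

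*Hsp70Aa* had 728 and 741 CPM in *Atx2* RNAi at ZT0, against 582.5 and 627 in wild type at ZT0 and ZT2, and 861 and 813 at ZT12, against 448 and 435 in wild type at ZT12 and ZT14. Both *Atx2* RNAi groups stood above their wild-type groups, and the difference passed the test at ZT12 alone, at a log2 fold change of 0.92 (SE 0.18, adjusted p = 0.0143). Without each of the 4 libraries in turn the adjusted p at ZT12 was 0.157, 0.111, 0.055 and 0.0879 (*Atx2* RNAi replicates 1 and 2, wild type ZT12 and ZT14).

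In *tyf*, *Hsp70Aa* had 1721 and 646 CPM at ZT4, against 627 and 329.6 in wild type at ZT2 and ZT4, and 366 and 539 at ZT16, against 435 and 559.7 in wild type at ZT14 and ZT16. The ZT4 difference came to 1.31 on the log2 scale (SE 0.41, adjusted p = 0.0896), with replicate 1 far above replicate 2, and the ZT16 groups overlapped. *Hsp70Bc* behaved alike in *Atx2* RNAi at ZT12. It had 214 and 255 CPM there, against 155 and 110 in wild type at ZT12 and ZT14, for a log2 fold change of 0.82 (SE 0.22, adjusted p = 0.0483). The call was lost without *Atx2* RNAi replicate 1 (0.172), replicate 2 (0.319) or wild type ZT14 (0.282). *Hsp70Bc* had 206 and 189 CPM in *Atx2* RNAi at ZT0, 344 and 183 in *tyf* at ZT4 and 112 and 161 in *tyf* at ZT16, against 110 to 180 over the wild-type libraries, and passed no other test against wild type.

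*Hsp68*, an inducible Hsp70 of its own sequence, had 214 and 165 CPM in *Atx2* RNAi at ZT0 and 255 and 242 at ZT12, and in *tyf* 646 and 269 at ZT4 and 169 and 267 at ZT16, against 118 to 203 in wild type. No difference passed the test, and the nearest was *tyf* at ZT4 (log2 fold change 1.33, SE 0.37, adjusted p = 0.0635). *Hsp70Ba* stayed between 1.98 and 26.1 CPM in all libraries. *Hsp70Ab* ranged from 0 to 70.4 CPM with replicates of 1 group at either end (0.492 and 34.0 CPM in *Atx2* RNAi at ZT0), so no fold is given for it.

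The small heat shock proteins lie side by side on chromosome 3L, from the start of *Hsp67Bc* at 9371511 to the end of *Hsp27* at 9385694, with *Hsp22*, *Hsp26*, *Hsp67Ba* and *Hsp23* between them. Of the 6, *Hsp22* and *Hsp67Bc* rose in *Atx2* RNAi at ZT12 and *Hsp22* and *Hsp26* rose in *tyf* at ZT4. None was called in *Atx2* RNAi at ZT0 or in *tyf* at ZT16.

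*Hsp22*, whose protein is located in mitochondria, had 177 and 170 CPM in *Atx2* RNAi at ZT12, against 106 and 56.6 in wild type at ZT12 and ZT14, for a log2 fold change of 1.09 (SE 0.28, adjusted p = 0.0404). In *tyf* at ZT4 it had 350 and 183 CPM, against 83.5 and 44.9 in wild type at ZT2 and ZT4, a log2 fold change of 2.06 (SE 0.34, adjusted p = 0.00396), which is 4.17-fold. The groups did not overlap in either comparison. The call in *Atx2* RNAi was lost without RNAi replicate 1 (0.197), replicate 2 (0.179) or wild type ZT14 (0.216), and the call in *tyf* was lost only without wild type ZT4 (adjusted p = 0.0514). Without the *tyf* library that stood apart, *Hsp22* was still called at ZT4.

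*Hsp22* also had 129 and 146 CPM in *Atx2* RNAi at ZT0, against 104 and 83.5 in wild type at ZT0 and ZT2, and 102 and 122 in *tyf* at ZT16, against 56.6 and 70.2 in wild type at ZT14 and ZT16. All 8 mutant libraries thus stood above the wild-type libraries of their own comparison. The log2 fold changes of 0.52 and 0.79 did not pass the test (adjusted p = 0.295 and 0.185).

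*Hsp26* had 800.1 and 408 CPM in *tyf* at ZT4, against 242 and 178 in wild type at ZT2 and ZT4. Both *tyf* libraries lay above both wild-type libraries, a 2.88-fold rise (log2 fold change 1.53, SE 0.32, adjusted p = 0.0154). The value was 0.96 without *tyf* replicate 1 (adjusted p = 0.0825) and 1.31 without wild type ZT4 (adjusted p = 0.14). *Hsp26* had 220 and 310 CPM in *tyf* at ZT16, against 168 and 212 in wild type at ZT14 and ZT16. In *Atx2* RNAi it had 232 and 194 CPM at ZT0, against 268 and 242 in wild type at ZT0 and ZT2, and 335 and 264.5 at ZT12, against 274 and 168 in wild type at ZT12 and ZT14. None of these 3 differences passed the test (adjusted p from 0.331 to 0.549).

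*Hsp67Bc* had 48.1 and 46.5 CPM in *Atx2* RNAi at ZT12, against 23.2 and 17.8 in wild type at ZT12 and ZT14, a 2.31-fold rise (log2 fold change 1.21, SE 0.26, adjusted p = 0.0225). The call was lost without RNAi replicate 1 (0.143), replicate 2 (0.125) or wild type ZT14 (0.143). At ZT0 it had 58.2 and 37.5 CPM in *Atx2* RNAi, against 25.3 and 25.5 in wild type at ZT0 and ZT2, which also did not overlap and missed the threshold (log2 fold change 0.88, adjusted p = 0.0665). In *tyf* it had 77.6 and 36.3 CPM at ZT4, against 25.5 and 38.0 in wild type at ZT2 and ZT4, and 24.2 and 34.9 at ZT16, against 17.8 and 23.6 in wild type at ZT14 and ZT16.

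*Hsp23*, the highest of the 37 genes in mean TPM, passed no test. It had 463 and 459 CPM in *Atx2* RNAi at ZT0, 463 and 325 in *Atx2* RNAi at ZT12, 763.5 and 467 in *tyf* at ZT4 and 240.1 and 415 in *tyf* at ZT16. The 6 wild-type libraries had a lowest value of 237, a median of 352 and a highest of 391 CPM. The log2 fold changes of *Hsp23* ran from 0.06 to 0.74. *Hsp27* and *Hsp67Ba* passed no test against wild type either, with log2 fold changes from -0.56 to 0.21 and from -0.17 to 0.74.

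**Figure D4:**
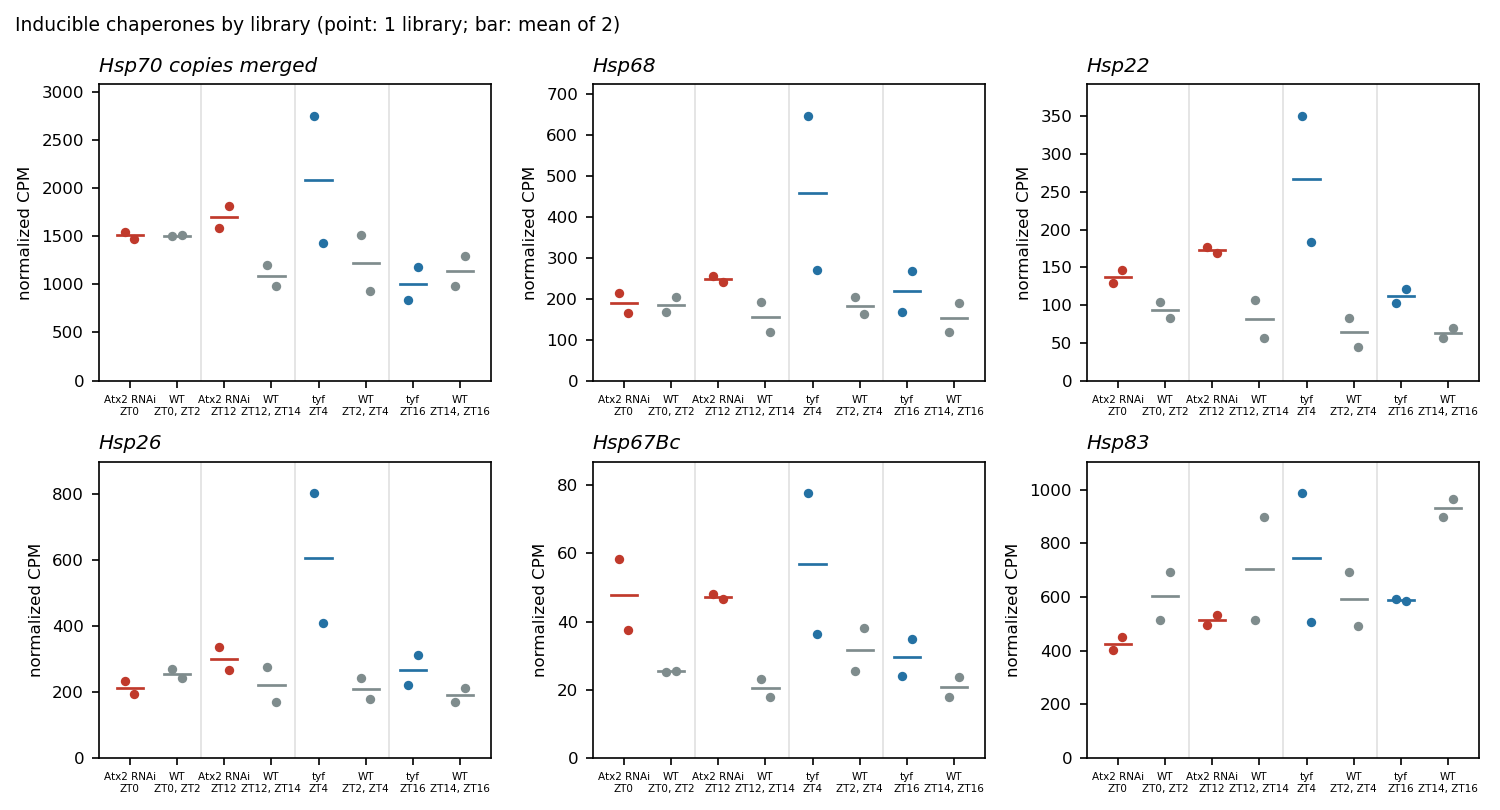
Normalized CPM of the merged Hsp70 copies, *Hsp68*, *Hsp22*, *Hsp26*, *Hsp67Bc* and *Hsp83* by library, in 4 pairs of a mutant group (red for *Atx2* RNAi, blue for *tyf*) and the wild-type libraries it was set against (grey), with each point a library and each bar the mean of 2; the axes start at 0, and wild type ZT2 and ZT14 are drawn in 2 pairs. *Hsp22* is above its wild-type libraries in all 8 mutant libraries, and the *tyf* ZT4 group is split in most panels, with replicate 1 the highest.

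*Hsp83*, the Hsp90 gene, and *DnaJ-1*, the cytosolic J protein that works with Hsp70, are induced by heat and are also used by unstressed cells. *Hsp83* had 402 and 449 CPM in *Atx2* RNAi at ZT0, 494.5 and 531 in *Atx2* RNAi at ZT12, 985.5 and 505.5 in *tyf* at ZT4 and 591 and 586 in *tyf* at ZT16, against a lowest value of 493, a median of 604 and a highest of 966 in wild type. The *Atx2* RNAi libraries of ZT0 were the 2 lowest of the 14, and no difference passed the test (log2 fold changes from -0.70 to 0.33, adjusted p from 0.186 to 0.59). *DnaJ-1* had 177 and 144 CPM in *Atx2* RNAi at ZT0, 213 and 197.5 in *Atx2* RNAi at ZT12, 341 and 202.5 in *tyf* at ZT4 and 155 and 126.5 in *tyf* at ZT16, against 157 to 252 in wild type, and passed no test (adjusted p from 0.151 to 0.535).

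Over the 15 inducible genes, the median log2 fold change was 0.11 in *Atx2* RNAi at ZT0, 0.58 at ZT12, 0.84 in *tyf* at ZT4 and 0.06 at ZT16. The medians of all genes tested were -0.01, -0.01, 0.01 and -0.03. Of the 15, the counts called higher were 1, 5, 3 and 1, with 0 called lower in each, and these counts contain *Hsp70Bbb*. Over all genes tested, 7.3%, 6.83%, 4.3% and 6.22% were called in these comparisons. At ZT12 in *Atx2* RNAi, 3 of the 5 were near-identical Hsp70 copies, whose merged sum was not called (edgeR adjusted p = 0.0721). Without the *tyf* library that stood apart, the median at ZT4 was 0.26. With *Hsp70Ab* at its bound against 3 counts a library, where wild type held none, the medians of *Atx2* RNAi at ZT0 and *tyf* at ZT4 stayed at 0.11 and 0.84.

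*DnaJ-H*, a cytosolic J protein, was lower in *Atx2* RNAi at both times. It had 24.1 and 28.6 CPM in *Atx2* RNAi at ZT0, against 49.2 and 56.9 in wild type at ZT0 and ZT2, and 26.8 and 31.5 at ZT12, against 57.8 and 54.5 in wild type at ZT12 and ZT14. *DnaJ-H* fell by 1.04 on the log2 scale at ZT0 (SE 0.21, adjusted p = 0.0161) and by 0.94 at ZT12 (SE 0.22, adjusted p = 0.0269), about 2.06-fold and 1.92-fold lower. The highest *Atx2* RNAi library, at 31.5 CPM, lay well under the lowest wild-type library, at 49.2. At ZT0 the adjusted p was 0.156 without RNAi replicate 1, 0.0703 without replicate 2 and 0.0705 without wild type ZT2. At ZT12 it was between 0.0746 and 0.222 without any 1 of the 4 libraries.

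In *tyf*, *DnaJ-H* had 40.1 and 41.7 CPM at ZT4, against 56.9 and 64.2 in wild type at ZT2 and ZT4, and 47.9 and 43.7 at ZT16, against 54.5 and 55.8 in wild type at ZT14 and ZT16. The groups did not overlap at either time, and neither test passed (log2 fold changes -0.57 and -0.30, adjusted p = 0.193 and 0.483). The other J proteins were scarce. *DnaJ-60* averaged 13.2 TPM and *Hsc20*, which serves iron-sulfur cluster assembly, 8.74 TPM, and neither was called against wild type.

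Of the cognate Hsc70 genes, *Hsc70-3* and *Hsc70-4* are the abundant ones. *Hsc70-3* had 687 and 693 CPM in *Atx2* RNAi at ZT0, against 827 and 1344 in wild type at ZT0 and ZT2, and 1326 and 1645 at ZT12, against 875.5 and 851 in wild type at ZT12 and ZT14. It was thus below wild type at ZT0 and above it at ZT12 in every library, though neither difference passed the test (log2 fold changes -0.68 and 0.79, adjusted p = 0.117 and 0.0772). In *tyf* it had 852 and 1250 CPM at ZT4, against 1344 and 904 in wild type at ZT2 and ZT4, and 698 and 965 at ZT16, against 851 and 870.1 in wild type at ZT14 and ZT16, with overlap at both times.

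*Hsc70-4* had 437 and 417 CPM in *Atx2* RNAi at ZT0, against 598 and 638 in wild type at ZT0 and ZT2, and 743 and 692.5 at ZT12, against 782 and 679 in wild type at ZT12 and ZT14. The ZT0 groups did not overlap, and the log2 fold change of -0.56 missed the threshold (adjusted p = 0.0976). In *tyf* it had 582 and 537 CPM at ZT4 and 591 and 651 at ZT16, against 598 to 814 in wild type, with log2 fold changes of -0.16 and -0.30 (adjusted p = 0.749 and 0.471). *Hsp110*, an exchange factor of Hsp70 that is listed with the cognates, and *Hsc70-5*, the mitochondrial Hsp70, passed no test, with log2 fold changes from -0.23 to 0.07 and from -0.62 to 0.15.

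*Hsc70-2* was detected in *Atx2* RNAi and scarcely elsewhere. It had 33 and 50 estimated counts in *Atx2* RNAi at ZT0 and 18 and 34 at ZT12, against 0 in each of the 4 *tyf* libraries and 3, 3, 0, 1, 2 and 2 in wild type from ZT0 to ZT16. The RNAi libraries were all above the others, although a level of 3.11 to 5.05 CPM is low. By the pooled counts, the ratio of *Atx2* RNAi to wild type was 9.17 at ZT0 (exact 95% interval 4.04 to 25.7, 83 against 6 counts) and 26.1 at ZT12 (8.47 to 131, 52 against 3 counts), where the intervals cover counting error only. The edgeR test passed at both times (adjusted p = 0.0427 and 0.0138). At ZT0 it was lost without any 1 of the 4 libraries (adjusted p from 0.0891 to 0.185), and at ZT12 without RNAi replicate 1 (0.0506), replicate 2 (0.109) or wild type ZT12 (0.0758). A count of 0 in a *tyf* library allows up to 3 counts, or between 0.19 and 0.283 CPM. *Hsc70-1* had 14 and 16 counts in *tyf* at ZT4 and 6 and 30 at ZT16, and 4, 21, 1 and 6 in *Atx2* RNAi, against 1, 1, 1, 3, 1 and 3 in wild type from ZT0 to ZT16. No wild-type library was over 3 counts, while all 4 *tyf* libraries and 3 of 4 *Atx2* RNAi libraries were. Neither test in *tyf* passed (edgeR adjusted p = 0.184 at ZT4 and 0.23 at ZT16, unadjusted 0.0235 and 0.0496), and the gene was not tested in *Atx2* RNAi.

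**Figure D5:**
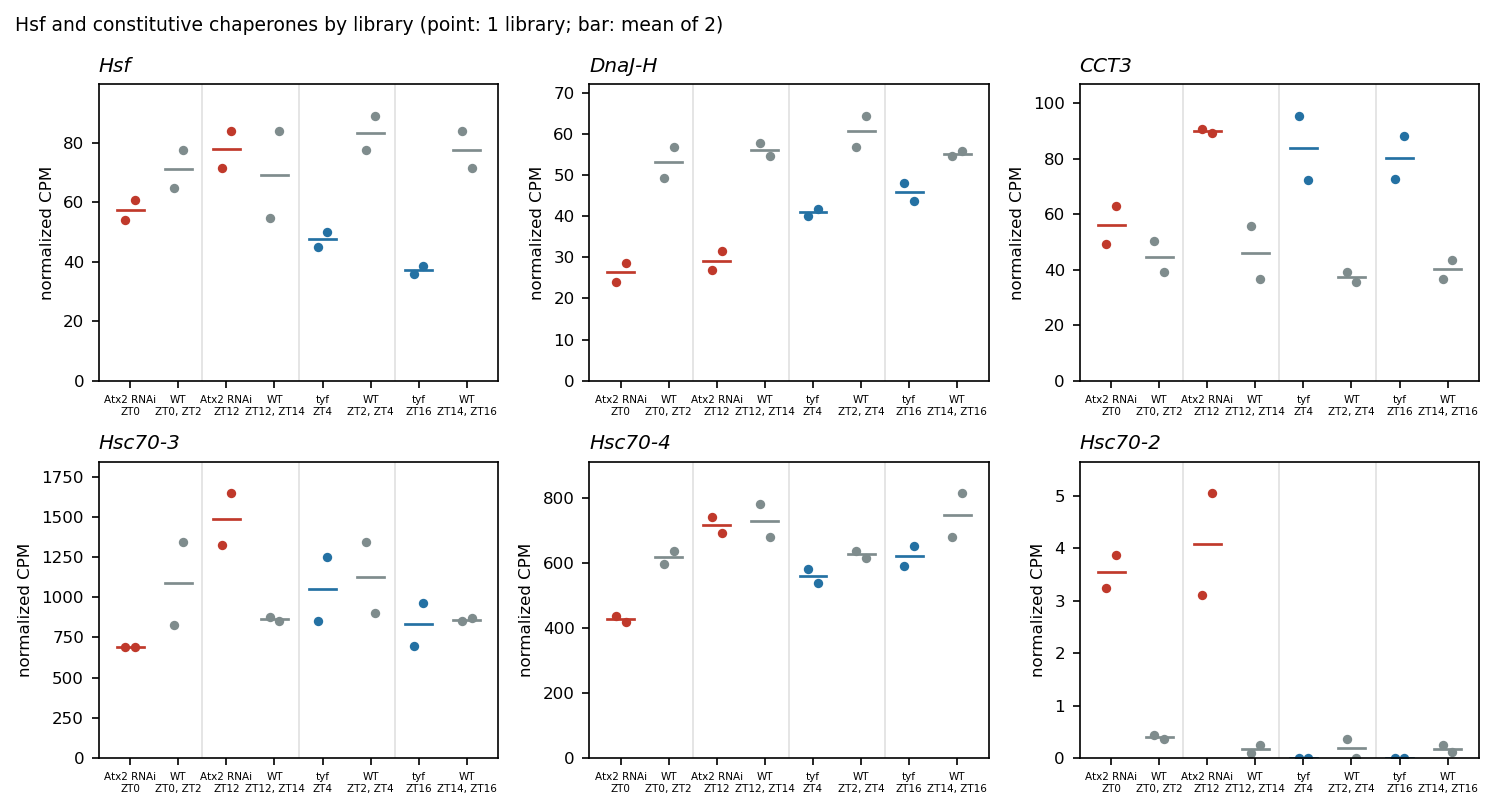
Normalized CPM of *Hsf*, *DnaJ-H*, *CCT3*, *Hsc70-3*, *Hsc70-4* and *Hsc70-2* by library, in 4 pairs of a mutant group (red for *Atx2* RNAi, blue for *tyf*) and the wild-type libraries it was set against (grey), with each point a library and each bar the mean of 2; the axes start at 0, and wild type ZT2 and ZT14 are drawn in 2 pairs. *DnaJ-H* is below wild type in all 8 mutant libraries, *Hsf* in the 4 *tyf* libraries, and *Hsc70-2* is seen at 3.11 to 5.05 CPM in *Atx2* RNAi and at most 0.429 elsewhere.

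*Hsp60A*, the mitochondrial chaperonin, had 197 and 247 CPM in *Atx2* RNAi at ZT0, 138 and 121.5 in *Atx2* RNAi at ZT12, 134 and 134 in *tyf* at ZT4 and 162 and 197 in *tyf* at ZT16, against a lowest value of 126, a median of 153 and a highest of 304 in wild type. It passed no test against wild type (log2 fold changes from -0.21 to 0.28). The other Hsp60 genes were at the limit of detection. *Hsp60D* had 0 to 12 counts, *Hsp60C* 0 to 23 and *Hsp60B* 0 to 5, and no direction can be read from them at this depth.

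Among the 8 subunits of the CCT ring, only *CCT3* was called, and it was higher in 3 of the 4 comparisons. It had 90.8 and 89.1 CPM in *Atx2* RNAi at ZT12, against 55.6 and 36.7 in wild type at ZT12 and ZT14 (log2 fold change 0.96, SE 0.25, adjusted p = 0.0424). In *tyf* it had 95.2 and 72.4 CPM at ZT4, against 39.2 and 35.5 in wild type at ZT2 and ZT4 (log2 fold change 1.17, SE 0.24, adjusted p = 0.0146), and 72.5 and 88.1 at ZT16, against 36.7 and 43.5 in wild type at ZT14 and ZT16 (log2 fold change 0.97, SE 0.24, adjusted p = 0.0308). In *Atx2* RNAi at ZT0 it had 49.4 and 62.9 CPM, against 50.2 and 39.2 in wild type at ZT0 and ZT2, which overlapped (adjusted p = 0.528).

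These calls of *CCT3* hung on single libraries. In *Atx2* RNAi at ZT12 the adjusted p was 0.203 without RNAi replicate 1, 0.199 without replicate 2 and 0.25 without wild type ZT14. In *tyf* at ZT4 it was 0.055 without wild type ZT2, 0.0903 without *tyf* replicate 1 and 0.119 without wild type ZT4, and at ZT16 it ran from 0.0795 to 0.268 without any 1 of the 4 libraries. Scaled by library size alone, the *tyf* value at ZT16 was 0.58 (adjusted p = 0.216).

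The other 7 subunits passed no test against wild type. In *Atx2* RNAi at ZT12 all 8 subunits had positive log2 fold changes, with a median of 0.54 beside -0.01 over all genes, and 1 of 8 was called. *CCT2* had 125 and 122 CPM in *Atx2* RNAi at ZT0, 155 and 124 in *Atx2* RNAi at ZT12, 118 and 132 in *tyf* at ZT4 and 146 and 154 in *tyf* at ZT16, against a lowest value of 81.0, a median of 103 and a highest of 122.5 in wild type. *CCT5* had 59.9 and 63.9 CPM in *Atx2* RNAi at ZT0, 107 and 110 in *Atx2* RNAi at ZT12, 65.2 and 66.7 in *tyf* at ZT4 and 77.1 and 88.7 in *tyf* at ZT16, against 52.1 to 84.5 in wild type. Both *Atx2* RNAi libraries of ZT12 were thus above every other library for *CCT5*.

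Over the constitutive genes tested, the median log2 fold change was -0.00 in *Atx2* RNAi at ZT0, 0.38 at ZT12, -0.09 in *tyf* at ZT4 and 0.07 at ZT16. Of 15 tested in each comparison, 1 was called higher and 1 lower at ZT0, 2 higher and 1 lower at ZT12, and 1 higher and 0 lower at each time of *tyf*. The shares called over all genes were 7.3%, 6.83%, 4.3% and 6.22%. In *tyf* at ZT16, scaling by library size alone turned the median to -0.32 for this set and to -0.32 for the inducible set.

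Between the times of 1 genotype, *Hsc70-3* and *Hsc70-4* were lower at ZT0 than at ZT12 in *Atx2* RNAi. *Hsc70-3* had 687 and 693 CPM at ZT0 and 1326 and 1645 CPM at ZT12, and fell by 1.14 on the log2 scale (SE 0.24, adjusted p = 0.0251). *Hsc70-4* had 437 and 417 CPM at ZT0 and 743 and 692.5 CPM at ZT12, and fell by 0.78 on the log2 scale (SE 0.19, adjusted p = 0.043). They were the 2 of 33 genes called, beside 4.1% of all genes, and the groups did not overlap. Neither call was made without any 1 of the 4 libraries (adjusted p from 0.0969 to 0.384), and that of *Hsc70-4* was not made with library size alone (0.0572). Of 5 fat body or hemocyte markers, 2 were also called lower at ZT0, with a median of -3.51, and their part in these calls was not tested. All 8 CCT subunits also had lower values at ZT0 than at ZT12, with a median of -0.45 and none called. In wild type, all 8 were likewise lower at ZT0, ZT2 and ZT4 than at ZT12, ZT14 and ZT16 (median -0.15, none called). *Hsc70-4* was also lower there, without overlap (log2 fold change -0.30, edgeR adjusted p = 0.503), and *Hsc70-3* was not (0.24, adjusted p = 0.793).

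In *tyf*, ZT4 was set against ZT16, and 1 of 34 genes was called, beside 0.989% of all genes. *Hsp70Bbb* was higher at ZT4, with 166.5 and 145 CPM at ZT4 and 27.5 and 59.6 CPM at ZT16 (log2 fold change 1.87, SE 0.34, adjusted p = 0.0257), and the call was lost without *tyf* ZT16 replicate 1 (adjusted p = 0.15) and when the *tyf* libraries were fitted alone (0.055). The median over the inducible genes was 0.98, beside 0.03 over all genes, and 12 of the 15 had an unadjusted p under 0.05, beside 10.1% of all genes, of which 11 were higher at ZT4 and *Hsp67Ba* was lower (-0.96, adjusted p = 0.0743). Among the 37 genes the count at an unadjusted p under 0.05 was 12, and 7 without the *tyf* ZT4 library that stood apart. The count of chaperones called was 6 with DESeq2 (235 of 9899 over all genes). With 1 library left out the count rose in some fits and fell in others, as did the calls over all genes.

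In wild type, the 3 libraries of ZT0, ZT2 and ZT4 were set against the 3 of ZT12, ZT14 and ZT16, and 0 of 35 genes were called with edgeR and 0 with DESeq2, beside 2.05% of all genes. At an unadjusted p under 0.05 there were 2 with edgeR, *Hsp70Bbb* and *Hsp70Ab*, beside 10.8% of all genes, and 3 with DESeq2. *Hsp70Bbb* had 18.0, 14.8 and 8.82 CPM at ZT0, ZT2 and ZT4 and 4.03, 7.18 and 8.26 CPM at ZT12, ZT14 and ZT16, without overlap (log2 fold change 1.06, adjusted p = 0.284). *Hsf* had 64.9, 77.5 and 88.9 CPM in the morning libraries and 54.6, 83.9 and 71.6 in the evening ones, with overlap.

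Whether the effect of a genotype differed between its 2 times was tested as an interaction. For *Atx2* RNAi, 0 of 33 genes were called with edgeR, beside 0.74% of all genes, 7 had an unadjusted p under 0.05, beside 11.2%, and 2 were called with DESeq2, which called 229 of 9124 genes. The effect on *Hsc70-3* was 1.47 lower on the log2 scale at ZT0 than at ZT12 (SE 0.34, adjusted p = 0.0883). For *tyf*, 0 of 34 were called with edgeR, beside 0.0526% of all genes, 6 had an unadjusted p under 0.05, beside 6.01%, and 0 were called with DESeq2, which called 54 of 8845. Differences between the times of a genotype's effect on chaperones were therefore not shown by edgeR.

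The effect of *Atx2* RNAi was also tested against that of *tyf* in 1 fit of the 14 libraries, where each wild-type library formed its own group and wild type ZT2 or ZT14 stood on both sides. In the morning (*Atx2* RNAi at ZT0 against *tyf* at ZT4), 3 of 35 genes were called, 1 higher and 2 lower, beside 3.05% of all genes. In the evening (*Atx2* RNAi at ZT12 against *tyf* at ZT16), 3 of 35 were called, all higher, beside 4.98%. The 6 genes are *Hsp26*, *Hsp22* and *Hsp67Ba* in the morning and *Hsc70-2*, *Hsp70Bbb* and *Hsf* in the evening. *Atx2* RNAi and *tyf* were sampled at different times, so genotype and time of day cannot be told apart in these tests.

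Outside the rule, 35 of 41 listed cochaperones and folding factors and 11 of 12 listed genes of the response to stress in the endoplasmic reticulum were found under their symbols. Of 32 cochaperones tested, 2 were higher and 3 lower in *Atx2* RNAi at ZT0, 5 higher and 1 lower at ZT12, 3 higher and 1 lower in *tyf* at ZT4 and 2 higher and 1 lower at ZT16. Of all genes, 7.3%, 6.83%, 4.3% and 6.22% were called in these comparisons. Of the 11 stress genes, 0 and 1 were called in *Atx2* RNAi at ZT0 and ZT12, and 0 and 2 in *tyf* at ZT4 and ZT16.

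Among these, *stv*, the BAG cochaperone starvin that works with Hsc70, was higher in *Atx2* RNAi at ZT12 (log2 fold change 0.83, adjusted p = 0.0288) and *tyf* at ZT4 (1.27, adjusted p = 0.0216). *Pfdn5*, a subunit of prefoldin, which delivers clients to CCT, was higher in all 4 comparisons, by 1.55 and 1.78 in *Atx2* RNAi at ZT0 and ZT12 (adjusted p = 0.00453 and 0.00244) and by 1.15 and 1.07 in *tyf* at ZT4 and ZT16 (adjusted p = 0.042 and 0.0467). *Pfdn1* was higher in *Atx2* RNAi at both times (0.99 and 1.07, adjusted p = 0.0204 and 0.0159). The small heat shock protein *l(2)efl* rose in *Atx2* RNAi at ZT12 (2.79, adjusted p = 0.016).

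*Gp93*, the Hsp90 of the endoplasmic reticulum, followed *Hsc70-3* in its signs in *Atx2* RNAi. It was lower at ZT0 than in wild type (-0.89, adjusted p = 0.0321) and lower at ZT0 than at ZT12 (-1.15, adjusted p = 0.0138), and its interaction of genotype and time passed the test (-1.67, adjusted p = 0.0399). *Pdi*, which forms disulfide bonds there, rose in *Atx2* RNAi at ZT12 (0.93, adjusted p = 0.0223). In *tyf* at ZT16, *Ire1*, a sensor of unfolded protein in the endoplasmic reticulum, was lower (-1.99, adjusted p = 0.0139) and *Hrd3* was higher (1.27, adjusted p = 0.0283). *Tpr2*, a J protein outside the naming rule, was lower in *Atx2* RNAi at ZT0 (-0.94, adjusted p = 0.0191).

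*HIP* is a cochaperone of Hsp70 with a near copy, *HIP-R*. *HIP* was called lower in all 4 comparisons, with log2 fold changes from -1.37 to -0.88, and *HIP-R* was called higher in 3, from 0.82 to 1.39. As with the Hsp70 copies, reads shared by near-identical genes could be split between them, so the single values are uncertain. Here too, genotype and a batch of libraries cannot be told apart.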

How the data were processed

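The 14 libraries hold RNA of sorted LNvs, amplified by T7 transcription and read from 1 end over 50 bases. Per the labels and methods, the authors quantified it with kallisto against FlyBase release 6.14 transcripts and deposited, for each of 30438 transcripts, an estimated count (not normalized), a TPM and an effective length. kallisto and DESeq2 are named in the submitters' processing notes without versions. Here, 30191 transcripts were matched to genes of the Ensembl release 115 annotation (BDGP6.54), and 247, with 0.234% of counts, were left out. The deposited TPM and estimated counts were summed for each gene, and the count sums were rounded. No sequences were used here.

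Gene sums were tested with edgeR 4.0.16 (limma 3.58.1, R 4.3.3): TMM, the default filterByExpr filter, the quasi-likelihood F-test and Benjamini-Hochberg adjustment over all tested genes. The 8 libraries of an experiment were fitted as 4 groups of 2, and wild-type times and *Atx2* RNAi against *tyf* were fitted in all 14. Total counts ran from 5216112 to 23507263, so a floor of 3 counts was 0.128 to 0.575 CPM and covers counting error only. Alternatives were DESeq2 1.42.0, its size factors in edgeR, library size only, no filter, a minimum of 10 counts in each library, fits of a comparison's libraries alone, the replicate number as a block, merged Hsp70 copies and leaving out each library. The fits were tested on simulated data. Values by library are given for *Hsf*, each gene called against wild type or between times, and the 2 most abundant of each role (*Hsp60D* by range); *Hsp68* and the further values of *Hsp67Bc* and *Hsp70Bc* were added as parts of these groups. Members and lists were chosen with earlier results of these data known, and *Hsp110* and *Hsc20* were given their role after the files were read. Python 3.11.15 served for tables (pandas 2.3.3, numpy 2.4.6) and for figures (matplotlib 3.10.9).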

Additional observations from a re-analysis of the deposited data

Results flagged for a closer look

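For 6 genes the effect of *Atx2* RNAi differed from that of *tyf* in the fit of all 14 libraries, by a test of the difference itself (edgeR, adjusted over 9695 genes). In the morning, *Hsp26* was 1.80 lower in the *Atx2* RNAi effect on the log2 scale (-1.80, standard error or SE 0.36, adjusted p = 0.0209) and *Hsp22* was 1.56 lower (-1.56, SE 0.32, adjusted p = 0.0246). *Hsp67Ba*, which lies between *Hsp26* and *Hsp23* on chromosome 3L, went the other way (0.95, SE 0.23, adjusted p = 0.049). The *tyf* side of this contrast holds the *tyf* ZT4 replicate 1 that stood apart. Without it, *Hsp26* was at -1.23 and *Hsp22* at -1.02, and both were still called. The call of *Hsp26* was lost without *Atx2* RNAi ZT0 replicate 2 (0.0542) or wild type ZT2 (0.0862), and that of *Hsp22* without *Atx2* RNAi ZT0 replicate 1 (0.0976), wild type ZT2 (0.0548) or wild type ZT4 (0.0952). With library size alone, none of the 3 was called (adjusted p = 0.0643 for *Hsp26*, 0.099 for *Hsp22* and 0.103 for *Hsp67Ba*). The call of *Hsp67Ba* was lost without *Atx2* RNAi ZT0 replicate 1 (0.145) or 2 (0.125), wild type ZT2 (0.221), wild type ZT4 (0.104) or *tyf* ZT4 replicate 2 (0.056).

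In the evening, *Hsf* was higher in the *Atx2* RNAi effect (1.26, SE 0.23, adjusted p = 0.0103), with the call lost without *Atx2* RNAi ZT12 replicate 2 (0.0971) or wild type ZT14 (0.0596). *Hsp70Bbb* was also higher (2.68, SE 0.53, adjusted p = 0.0132), with the call lost without the same libraries (0.0848 and 0.0736). *Hsc70-2* had a fitted difference of 8.62 (SE 2.11, adjusted p = 0.0428), which depends on the prior count, since all *tyf* libraries are at 0 counts and all wild-type libraries at 3 or fewer. Its call was lost without any 1 of 6 of the 7 libraries (adjusted p from 0.0574 to 0.181).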

How the results depend on the processing

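Counts of chaperones called moved by more than 1.5 times under these settings. For *Atx2* RNAi at ZT0 (3 called) they were 6 with DESeq2, 1 with library size only and 6 with no filter, and for ZT12 (8 called) 4 with library size only, 5 with the replicate block and 5 with merged Hsp70 copies. Over all genes these settings called 880, 416 and 1126 at ZT0, against 631, and 321, 418 and 588 at ZT12, against 590. For *tyf* they were 8 with no filter at ZT4 (4 called) and 5 with only the libraries of the comparison at ZT16 (3 called). Calls over all genes were then 816, against 409, and 946, against 591. Between the times of *Atx2* RNAi (2 called) they were 1 with library size only, 4 with no filter, 0 with the replicate block and 5 with only its libraries, and between those of *tyf* (1 called) 6 with DESeq2, 11 with no filter, 2 with at least 10 counts, 0 with only its libraries and 0 with merged copies. Those settings called 261, 721, 228 and 748 of all genes in *Atx2* RNAi, against 354. In *tyf* they called 235, 349, 117, 61 and 93 of all genes, against 94. The interactions (0 called) gave 2 with DESeq2 and 3 with no filter for *Atx2* RNAi and 2 with no filter for *tyf*. All-gene calls there were 229 and 397, against 64, and 152, against 5. *Atx2* RNAi against *tyf* (3 called) gave 5 with DESeq2, 0 with library size only and 8 with no filter in the morning, and 5 with library size only and 7 with no filter in the evening. Over all genes the calls were 543, 219 and 791 in the morning, against 296, and 581 and 933 in the evening, against 483. In *tyf*, library size only moved the medians to -0.32 for the inducible set and -0.32 for the constitutive set at ZT16, and to -0.19 for the constitutive set at ZT4.

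With each library left out, the counts ran from 1 to 4 and 1 to 5 for *Atx2* RNAi at ZT0 and ZT12, 1 to 8 and 1 to 2 for *tyf* at ZT4 and ZT16, 0 to 0 and 0 to 9 between the times of *Atx2* RNAi and of *tyf*, 0 to 1 for each interaction, and 0 to 9 and 0 to 3 for *Atx2* RNAi against *tyf* in the morning and evening. The inducible medians ran from 0.26 to 1.15 for *tyf* at ZT4 and from -0.28 to 0.42 at ZT16. The constitutive medians ran from -0.011 to 0.20 for *Atx2* RNAi at ZT0, from -0.12 to 0.15 for *tyf* at ZT4 and from -0.041 to 0.12 at ZT16. The cause of these changes was not tested, but leaving out a library leaves 1 in its group, assumed to vary like the others. Values near 0 changed sign for *Hsf* in *Atx2* RNAi at ZT12 without wild type ZT12 (range -0.12 to 0.49 with each library left out), for merged Hsp70 in *Atx2* RNAi at ZT0 with library size only (0.015) and without replicate 2 (range -0.066 to 0.016), and in *tyf* at ZT16 without replicate 1 (range -0.49 to 0.0066).

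Same-numbered *Atx2* RNAi or *tyf* libraries did not deviate together from their group means (r = 0.059 and 0.042 over 9695 genes, which are not independent), so the numbers do not pair the libraries. Library size only moved the median of all genes to -0.12 between the times of *Atx2* RNAi, 0.17 between those of *tyf* and -0.11 in wild type, and to 0.31 for the *tyf* interaction, 0.12 in the morning and 0.47 in the evening test of *Atx2* RNAi against *tyf*. The higher share of all calls was then 45.2% against 59.9%, 85.5% against 73.4%, 42.8% against 57.3%, 85.7% against 60.0%, 69.4% against 58.4% and 88.1% against 49.9%, and for the *Atx2* RNAi interaction 30.4% against 42.2%. Of the 27 calls of single genes, 12 held under every setting that kept all libraries. *Hsp60B*, *Hsp60C* and *Hsp60D* were too close to 0 counts for any direction.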
